A study of Mus musculus with 12 samples.

Results

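The genes examined here encode the constitutive proteasome and the chaperones that assemble it. Members were the protein-coding identifiers that GENCODE mouse release M21 (build GRCm38) pairs with a symbol of the Psma, Psmb, Psmc, Psmd, Psme, Psmf or Psmg series. The inducible genes Psmb8, Psmb9, Psmb10, Psme1 and Psme2 were left out by the same rule. It gave 43 genes of the 55487 identifiers in each count table. They were split by known role into the 20S core (16 genes), the base of the 19S cap (9), the lid of the 19S cap (8), assembly chaperones (7), and activators or inhibitors (3).

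The 26S proteasome is the protease that destroys proteins tagged with ubiquitin. Its barrel, the 20S core, stacks rings of alpha and beta subunits, and 3 of the beta subunits cut peptide bonds inside it. The 19S cap recognises and unfolds tagged proteins. Lymphocytes, and other cells under interferon, exchange the cutting subunits for the immunoproteasome subunits Psmb8, Psmb9 and Psmb10, which changes the peptides made for MHC class I.

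Total RNA was sequenced from 12 samples of OT-1 CD8+ T cells, in 4 groups of 3. OT-1 mice carry a transgenic receptor, so that nearly all their CD8 T cells see the same ovalbumin peptide. The groups Female and Male were splenic cells of either sex, stimulated for 3 days with beads against CD3 and CD28 and with mouse recombinant IL2. The groups WT and KD were male cells of another batch, cultured for 3 days after electroporation. In KD, Cas9 and a guide to Kdm5d, the Y-linked histone H3 demethylase, were electroporated, and in WT the guide went in without Cas9. The 2 comparisons therefore ask how the sexes differ and what follows the Kdm5d knockdown in male cells. No group received Cas9 without the Kdm5d guide, so effects of Cas9 and of reduced Kdm5d cannot be told apart. Ages are not given in the labels. The number of mice behind the samples is also not given, so p-values measure the spread between these samples, which may be technical.

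Totals ranged from 78748647 to 110803318 counts per sample. Levels are CPM, counts scaled to a common library total, with TMM factors (edgeR's trimmed mean of M-values) within each table. Kdm5d was at 48.4, 51.9 and 52.4 CPM in WT and at 21.4, 21.8 and 22.9 CPM in KD, a log2 fold change of -1.21. It was at most 0.0213 CPM in Female and 49.5 to 52.2 CPM in Male. The 7 listed CD8 T cell genes summed to 1709 to 2029 CPM in every sample. By edgeR at an adjusted p under 0.05, 4 of the 7 were called lower in Male than in Female. The share of all tested genes called lower there was 26.3%, and 38.3% among genes averaging a log2 CPM of 3 or more. In KD against WT, 4 of the 7 were also called lower, beside 18.4% of all tested genes and 30.3% at that level. The median log2 fold change over the 7 genes was -0.10 in each comparison. Single genes ranged from -0.18 to 0.05 in Male against Female and from -0.35 to -0.05 in KD against WT. Lists of CD4 T cell, B cell, myeloid, dendritic, neutrophil, erythroid and NK cell genes each summed to at most 6.49 CPM. Ms4a1, Siglech, Cd209a, S100a8, S100a9, Hba-a1, Hbb-bs and Hbb-bt had no count in any sample. The 5 myeloid genes summed to 0.153 to 0.669 CPM in Female, 0.871 to 1.08 in Male, 0.795 to 1.48 in WT and 2.00 to 2.84 in KD. The 5 dendritic genes summed to 2.55 to 3.06 CPM in WT and 0.875 to 1.22 CPM in KD. Cd4 averaged 0.182 CPM in Female and 0 in Male. Summed, the 3 CD4 T cell genes averaged 4.43 CPM in Female and 5.51 CPM in Male. In KD against WT, mean sums were 2.83 against 4.23 CPM for the CD4 list and 4.58 against 5.85 CPM for the B cell list. They were 0.0733 against 0.366 CPM for the neutrophil list and 0.956 against 1.54 CPM for the NK list. The erythroid list, like the myeloid, was higher in KD, at 0.875 against 0.565 CPM. The part of these cells in the results below was not tested.

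Proteasome transcripts were higher in Male than in Female nearly throughout. Of the 41 members tested, 37 were higher in Male, 1 was lower (Psmf1) and 3 did not pass the test (Psmg3, Psmd9 and Psme4), by edgeR's quasi-likelihood test at a Benjamini-Hochberg adjusted p under 0.05. Over all 20208 genes tested, 23.5% were called higher and 26.3% lower. Among genes averaging a log2 CPM of 3 or more, a level closer to that of the members, the shares were 37.9% and 38.3%. The median log2 fold change of the tested members was 0.45, a 1.37-fold difference, beside 0.01 over all genes tested. In bulk samples, fewer cells of a type and less RNA per cell cannot be told apart. In each of the 37 genes called higher the lowest Male sample lay above the highest Female sample, a pattern that 28.6% of all tested genes showed, while 29.7% showed the reverse. Of the 37 calls, 33 held wherever the gene was tested among the 11 other settings and the 6 fits with 1 sample left out. Psma6, Psmg2 and Psmd10 lost theirs once trends with transcript length and GC content were removed (adjusted p = 0.055, 0.056 and 0.125 in edgeR). Psmd5 lost its call without a low-count filter (adjusted p = 0.057) and without any 1 of Female sample 2, Male sample 2 or Male sample 3.

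**Figure D1:**
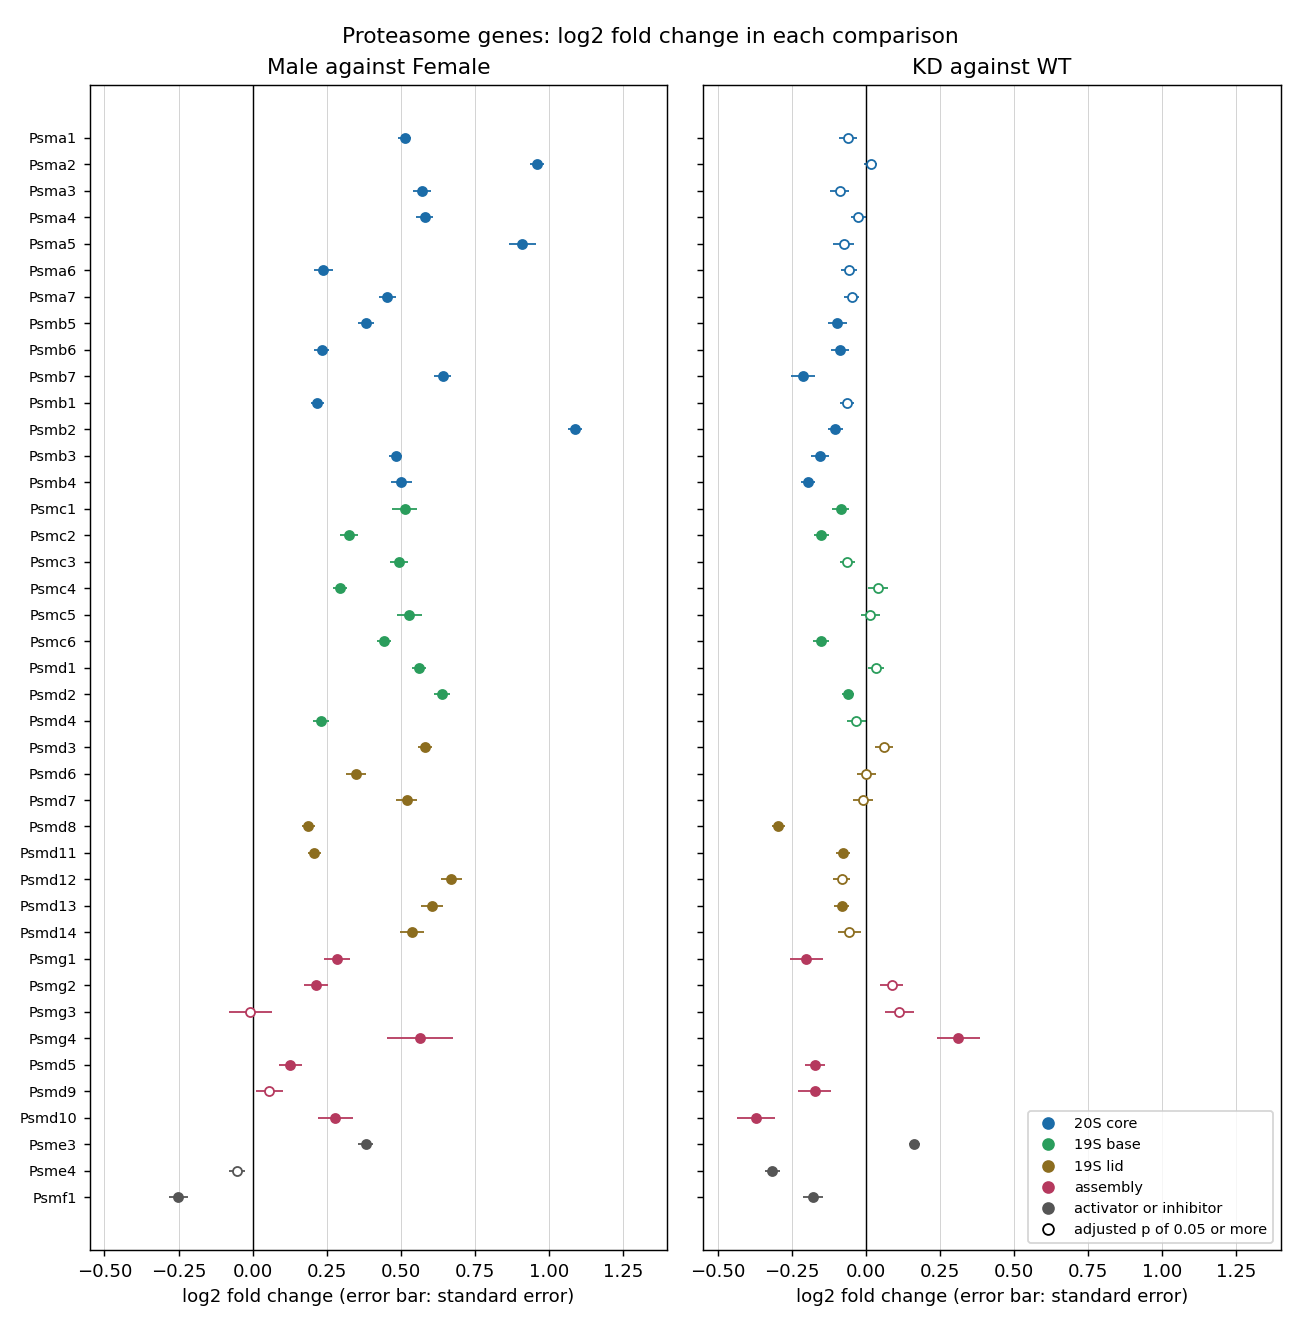
Log2 fold change of each member tested in both comparisons, Male against Female on the left and KD against WT on the right, coloured by class. Horizontal lines are standard errors, and open circles had an edgeR adjusted p of 0.05 or more. In Male the 31 tested subunits of the particle all lie right of 0, between 0.19 and 1.09, while values for KD lie between -0.37 and 0.31.

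Since the members moved together in the sex comparison, the stretches upstream of their starts were examined. RefSeq promoter sequences (build GRCm38.p6) were matched by symbol for 35 of the 43 members. The 250 bases before the RefSeq start are printed 5′ to 3′ on the gene's strand for 6 genes. That start lay within 50 bases of the outermost GENCODE start for 28 of the 35, among them 5 of the 6 printed. For Psmf1 it lay 2876 bases inside the GENCODE gene, at the start of another of its transcripts. Psma2 stands for a large sex difference, Psmb5 and Psmb6 for the catalytic subunits, Psmc6 and Psmd12 for cap genes, and Psmf1 for the gene that was lower. Capitals mark matches to the motifs spelled out below.
Psma2: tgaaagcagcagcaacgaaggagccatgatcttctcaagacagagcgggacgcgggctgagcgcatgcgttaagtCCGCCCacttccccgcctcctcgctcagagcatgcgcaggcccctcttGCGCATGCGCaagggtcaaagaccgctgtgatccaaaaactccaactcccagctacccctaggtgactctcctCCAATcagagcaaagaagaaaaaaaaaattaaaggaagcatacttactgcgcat
Psmb5: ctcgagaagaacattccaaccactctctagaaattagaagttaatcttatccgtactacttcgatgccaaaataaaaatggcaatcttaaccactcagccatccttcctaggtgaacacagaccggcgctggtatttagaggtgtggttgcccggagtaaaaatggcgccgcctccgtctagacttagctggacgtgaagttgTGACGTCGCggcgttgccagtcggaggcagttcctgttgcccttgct
Psmb6: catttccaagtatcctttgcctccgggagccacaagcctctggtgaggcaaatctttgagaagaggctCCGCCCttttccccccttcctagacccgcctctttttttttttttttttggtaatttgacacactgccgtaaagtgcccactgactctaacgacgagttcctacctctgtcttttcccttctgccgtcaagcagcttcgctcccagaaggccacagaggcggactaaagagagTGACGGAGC
Psmc6: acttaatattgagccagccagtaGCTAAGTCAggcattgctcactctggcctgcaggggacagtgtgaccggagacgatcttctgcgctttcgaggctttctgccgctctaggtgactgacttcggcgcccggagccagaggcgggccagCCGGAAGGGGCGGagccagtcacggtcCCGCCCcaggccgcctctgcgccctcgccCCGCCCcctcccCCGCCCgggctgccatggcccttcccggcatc
Psmd12: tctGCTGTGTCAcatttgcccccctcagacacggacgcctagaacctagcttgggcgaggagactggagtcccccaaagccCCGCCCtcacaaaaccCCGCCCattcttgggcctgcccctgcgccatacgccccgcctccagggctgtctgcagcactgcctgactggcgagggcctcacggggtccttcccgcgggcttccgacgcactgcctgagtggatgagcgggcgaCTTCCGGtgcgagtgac
Psmf1: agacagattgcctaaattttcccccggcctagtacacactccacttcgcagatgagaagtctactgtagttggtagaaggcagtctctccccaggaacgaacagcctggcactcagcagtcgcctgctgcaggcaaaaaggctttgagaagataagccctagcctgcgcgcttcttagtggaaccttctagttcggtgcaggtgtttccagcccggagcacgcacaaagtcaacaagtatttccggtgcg
These stretches lie at chr13:14612992-14613241 on the plus strand, chr14:54617996-54618245 on the minus strand, chr11:70525107-70525356 on the plus strand, chr14:45329574-45329823 on the plus strand, chr11:107479278-107479527 on the plus strand and chr2:151741311-151741560 on the minus strand.

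In all, 6 motifs were searched on both strands, and overlapping matches were each counted. The motif CCGGAAG, bound by ETS family factors, stood in 12 of the 35 member promoters (34.3%) and in 10.5% of all 16522 promoters. The palindrome of nuclear respiratory factor NRF1 stood in 6 (17.1%), beside 8.01% of all. The 16522 promoters are those of protein-coding genes at any level, silent ones included, and no set matched for level was compared. Whether a motif bears on the sex difference was not tested. The antioxidant response element core TGACNNNGC is the site through which NFE2L1 with a small Maf protein is known to raise proteasome genes. It stood in 5 promoters (14.3%), those of Psmb5, Psmb6, Psmc6, Psmd12 and Psmd9, beside 12.2% of all. Of these only Psmd9 is not printed above, so the printed stretches hold this motif more often than the members do. The GC box GGGCGG stood in 19 (54.3%, against 47.5%), the CCAAT box in 13 (37.1%, against 39.2%) and the E-box CACGTG in 3 (8.57%, against 7.81%). In Psmb6 the TGACNNNGC match ends 1 base before the start, in Psmb5 it begins 47 bases before it, and in Psmc6 the ETS match directly adjoins a GC box. The Psmf1 stretch, upstream of the inner start, held none of the motifs, and the stretch before its outermost start was not searched. A match describes letters, not a bound site.

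All 14 tested genes of the 20S core were higher in Male, with a median log2 fold change of 0.51 and a range of 0.22 to 1.09. Summed over the class, the core reached 1536 ± 18.7 CPM in Male (SD over 3 samples) against 1072 ± 14.0 CPM in Female, 43.2% more. The largest difference was in Psmb2 (ENSMUSG00000028837, chr4:126677630-126709714, plus strand), a structural beta subunit. Psmb2 was at 47.8, 46.9 and 47.4 CPM in Female and at 102, 100.4 and 99.6 CPM in Male. The groups did not overlap, and Male stood 2.12-fold higher by the fit (log2 1.09 ± 0.02 SE, edgeR adjusted p = 2.24e-10).

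Psma2 (ENSMUSG00000015671, chr13:14613240-14674236, plus strand), a subunit of the alpha ring that gates the barrel, followed. It was at 69.6, 70.3 and 71.9 CPM in Female and at 136, 138 and 138 CPM in Male. The groups were far apart relative to their spread, at 1.95-fold (log2 0.96 ± 0.02, edgeR adjusted p = 5.78e-10). Psma5, also of the alpha ring, came next at log2 0.91, with 58.7% of its 31-base subsequences shared with other genes. The least changed core gene was Psmb1, a structural beta subunit, at 108, 107 and 108 CPM in Female and 126, 124 and 126 CPM in Male. Even there the groups did not overlap (log2 0.22 ± 0.02, edgeR adjusted p = 1.2e-05).

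Each of the 3 cutting subunits was higher in Male, by unequal amounts. Psmb5 (chr14:54614119-54618022, minus strand), which carries the chymotrypsin-like activity, was at 68.1, 64.7 and 67.6 CPM in Female and 86.9, 87.7 and 86.5 CPM in Male (log2 0.38 ± 0.03, edgeR adjusted p = 8.73e-07). Psmb6 (chr11:70525367-70527858, plus strand), with the caspase-like activity, was at 103 CPM in each Female sample and 120.2, 118 and 124 CPM in Male (log2 0.23 ± 0.03, adjusted p = 2.58e-05). Psmb7 (chr2:38588036-38644087, minus strand), with the trypsin-like activity, was at 56.7, 54.6 and 55.8 CPM in Female and 89.3, 84.4 and 87.0 CPM in Male (log2 0.64 ± 0.03, adjusted p = 3.32e-08). No Female sample reached a Male sample in any of the 3.

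The other alpha ring genes Psma1, Psma3, Psma4 and Psma7 were higher by 0.45 to 0.58 on the log2 scale, and Psma6 by 0.24. The structural beta genes Psmb3 and Psmb4 were higher by 0.48 and 0.50. The core genes specific to other tissues were close to absent. Psma8, the alpha subunit of germ cells, had 0 counts in every Female sample and 0, 0 and 17 in Male. Psmb11, the cutting subunit of thymic cortical epithelium, had 0, 5 and 2 counts in Female and 0, 0 and 4 in Male. Neither passed the low-count filter in this comparison.

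**Figure D2:**
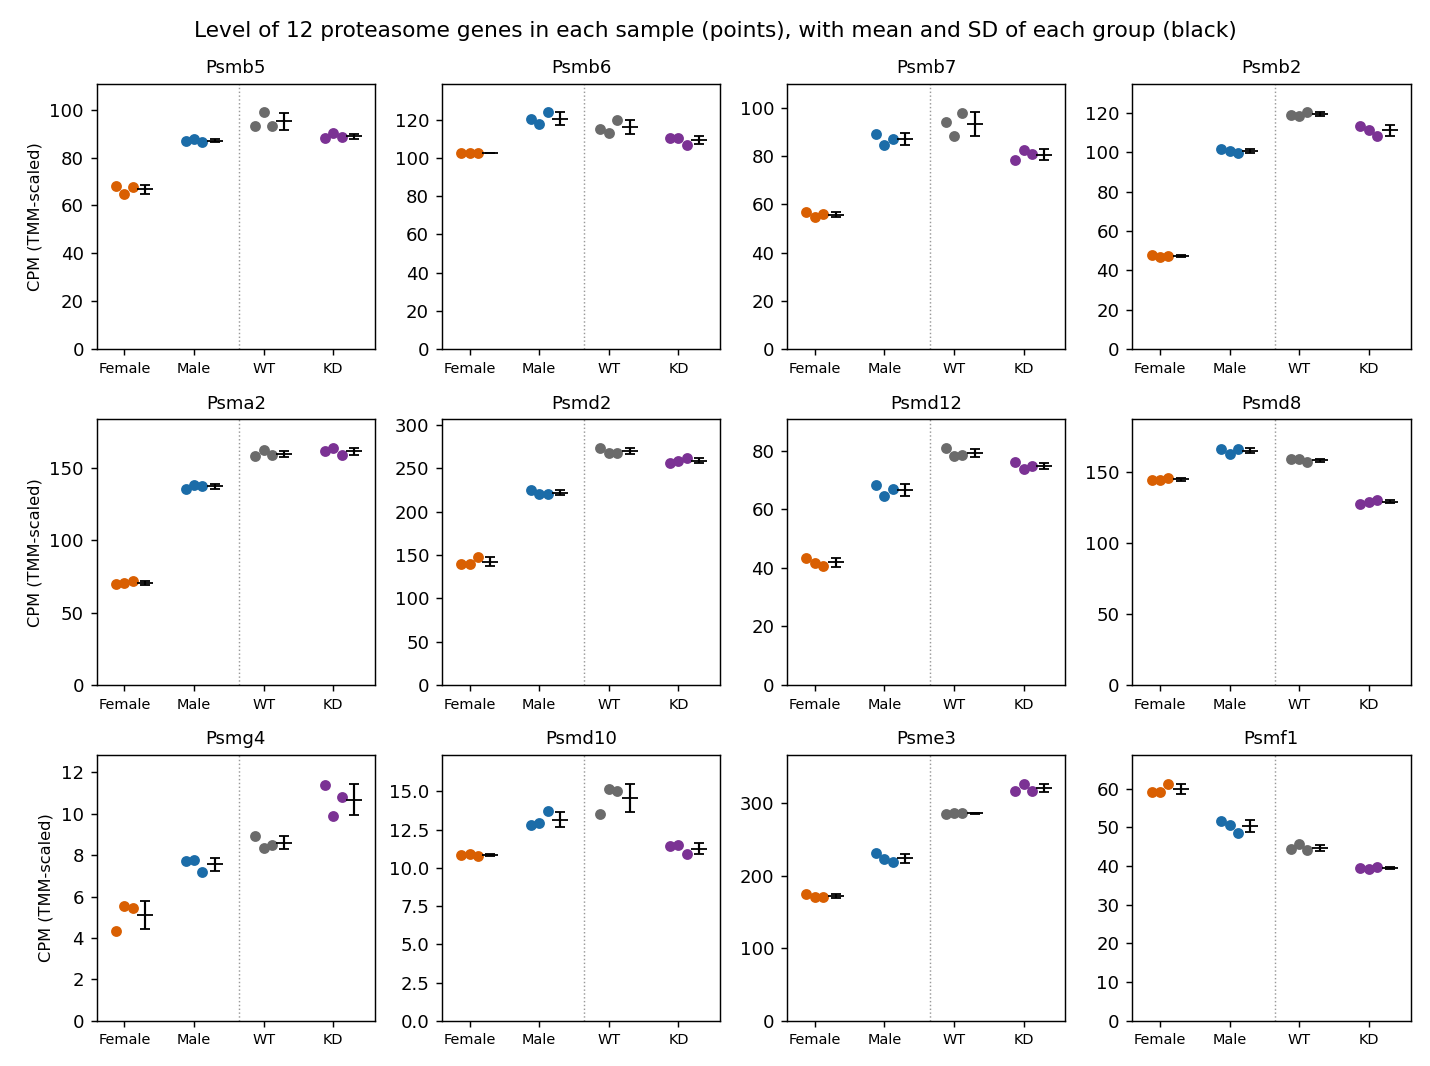
Level of 12 members in each sample, in TMM-scaled CPM on axes that start at 0; black marks are the mean and SD of each group of 3, and the dotted line separates the 2 tables, which were scaled apart. Psmb2 and Psma2 rise most from Female to Male, Psmf1 is lower in Male, and Psmd8 and Psmd10 are lower in KD than in WT.

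In the 19S base, all 9 genes were higher in Male, with a median of 0.49. The class summed to 702 ± 4.69 CPM in Female and 978 ± 9.62 CPM in Male, 39.3% more. The 6 ATPases Psmc1 to Psmc6, which form the motor that unfolds substrates, were higher by 0.30 (Psmc4) to 0.53 (Psmc5). Psmd2 (chr16:20651652-20663414, plus strand), a scaffold that docks ubiquitin shuttles, moved most in the base. It was at 140.1, 139 and 148 CPM in Female and 225, 219.8 and 220.1 CPM in Male, without overlap (log2 0.64 ± 0.03, edgeR adjusted p = 2.49e-08). Psmd1, the other large scaffold, was at 102, 106 and 102 CPM in Female and 154, 151 and 153 CPM in Male (log2 0.56 ± 0.02, adjusted p = 2.08e-08). Psmd4, a ubiquitin receptor, differed least, from 59.5, 58.1 and 57.8 CPM to 70.2, 67.7 and 68.0 CPM (log2 0.23 ± 0.03, adjusted p = 4.53e-05).

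The 8 lid genes were likewise all higher in Male, with a median of 0.53, and their sum went from 657 ± 4.49 CPM in Female to 874 ± 6.13 CPM in Male, 33.1% more. Psmd12 (chr11:107479484-107504362, plus strand), a structural lid subunit, was at 43.4, 41.6 and 40.6 CPM in Female and 68.3, 64.5 and 67.0 CPM in Male (log2 0.67 ± 0.04, edgeR adjusted p = 9.77e-08). Psmd13, another structural subunit, was at 50.3, 55.1 and 54.1 CPM in Female and 79.1, 82.8 and 80.8 CPM in Male (log2 0.61 ± 0.04, adjusted p = 2.9e-07). Psmd14, the enzyme that cuts ubiquitin off incoming proteins, was higher by 0.54, and its partner Psmd7 by 0.52. Psmd8 and Psmd11 differed least, by 0.19 and 0.21. For Psmd8 the values were 144, 145 and 146 CPM in Female and 166, 163 and 166 CPM in Male, again without overlap (adjusted p = 3.56e-05).

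Assembly factors had smaller differences. Of the 7, 5 were higher in Male, and the median was 0.21. Their sum was 161 ± 3.44 CPM in Female and 182 ± 3.51 CPM in Male, 13.2% more. Psmg1 to Psmg4 are the chaperones that put the alpha ring together. Psmg4 was at 4.32, 5.53 and 5.44 CPM in Female and 7.73, 7.75 and 7.17 CPM in Male (log2 0.57 ± 0.11, edgeR adjusted p = 0.00162). Psmg1 was at 30.7, 30.1 and 31.8 CPM in Female and 38.3, 38.9 and 35.6 CPM in Male (log2 0.28 ± 0.04, adjusted p = 0.000307). Both groups were clear of each other in these genes, whereas Psmg3 overlapped, at 16.5, 13.6 and 14.7 CPM in Female and 14.3, 15.4 and 14.7 CPM in Male (log2 -0.01 ± 0.07, adjusted p = 0.944). The base chaperones were Psmd10 (X-linked, chrX:140948429-140956728, minus strand) at log2 0.28, Psmd5 at 0.13 and Psmd9 at 0.06, the last not past the test. Psmd9 did pass for protein-coding genes only (0.11, edgeR adjusted p = 0.0429) and once length and GC trends were removed (0.16, adjusted p = 0.0123). Whether assembly genes as a class differed from the subunits was not tested.

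The 3 regulators of the core did not share a direction. Psme3, the nuclear activator PA28 gamma, was at 175, 171 and 170.5 CPM in Female and 231, 222 and 219 CPM in Male, all Male values being higher (log2 0.38 ± 0.03, edgeR adjusted p = 6.35e-07). Psmf1, known as PI31 and first described as an inhibitor of the core, was at 59.2, 59.1 and 61.3 CPM in Female and 51.7, 50.7 and 48.6 CPM in Male. It was the only member called lower in Male, at log2 -0.25 ± 0.03 (adjusted p = 8.99e-05), and its groups did not overlap. Psme4, the activator PA200, was at 148, 146 and 153 CPM in Female and 147, 140.5 and 143 CPM in Male, with overlap (log2 -0.05 ± 0.03, adjusted p = 0.144).

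**Figure D3:**
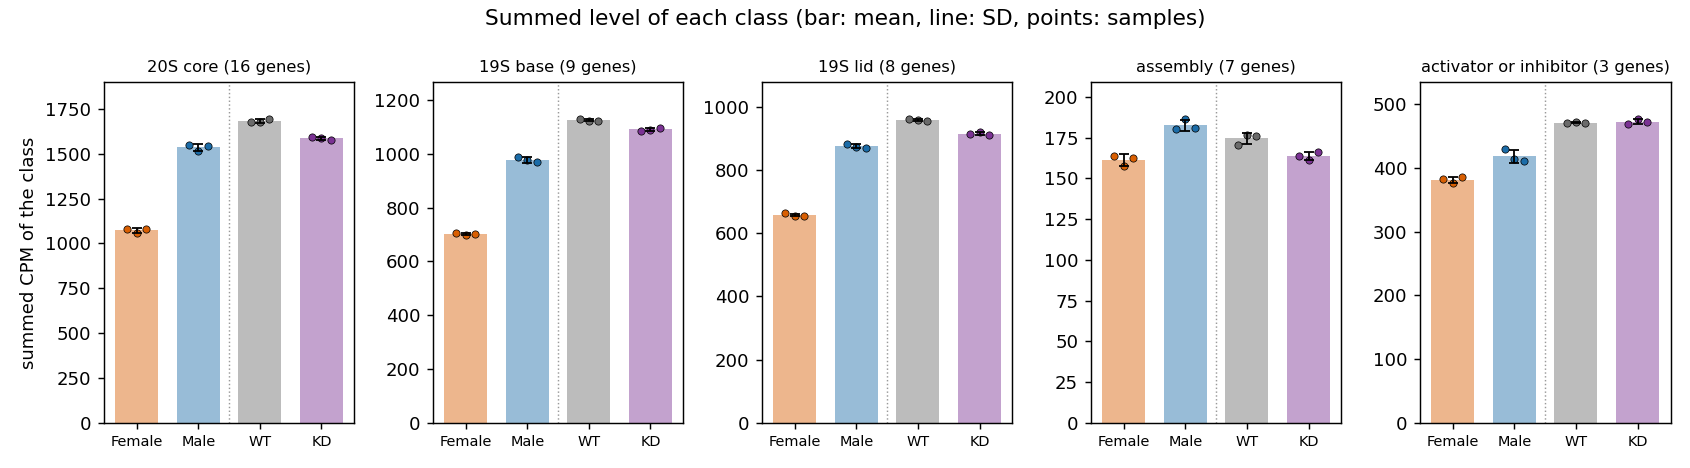
Summed CPM of the genes of each class, with bars for the mean, lines for the SD and points for the 3 samples of each group; axes start at 0 and the dotted line separates the tables. The 20S core, base and lid stand 43.2%, 39.3% and 33.1% higher in Male than in Female, and 5.68%, 3.04% and 4.57% lower in KD than in WT.

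Other genes of the pathway moved in both directions between the sexes, where 23.5% of all tested genes were called higher and 26.3% lower. All 5 inducible genes were higher in Male, with a median log2 fold change of 0.84. Psme1 and Psme2, which form the interferon-induced activator PA28 alpha-beta, were higher by 1.23 and 0.94, and the immunoproteasome subunits Psmb10, Psmb8 and Psmb9 by 0.84, 0.30 and 0.21. Reads of Psme2 may be shared with its near copy Psme2b, whose level was 54.4% of that of Psme2 in Female. Of 7 proteasome parts with other names, 6 were higher, among them Pomp, which matures the core, at 0.78, the small lid subunit Sem1 at 0.37 and the ubiquitin receptor Adrm1 at 0.13. Ecpas, which tethers cap and core, was at -0.13 and was called lower, but at -0.01 once length and GC trends were removed (edgeR adjusted p = 0.818).

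The genes around the transcription factor NFE2L1, which raises proteasome genes when proteasome activity falls, were mixed. Of 11, 4 were higher (3 to 5 over the 17 alternatives) and 5 lower. Among all genes averaging a log2 CPM of 3 or more, 37.9% were called higher and 38.3% lower, shares near those of this list. Nfe2l1 itself was lower in Male (log2 -0.17), as were Ngly1 (-0.63), the enzyme that strips sugars from it, and Ddi2 (-0.38), the protease that cuts it. Its relative Nfe2l2 was higher (0.40). Among 10 shuttle and p97 genes, 2 were higher and 5 lower, with Vcp, the p97 unfoldase, higher by 0.50 and Ubqln2 lower at -0.44. Only 3 were lower for protein-coding genes only, and 1 was higher without a low-count filter or without any 1 of Female sample 1, Female sample 2, Male sample 1 or Male sample 3.

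As other multi-subunit machines, 5 of 9 genes of the COP9 signalosome, whose architecture resembles that of the lid, were higher and 1 lower (median 0.12). The higher count was 4 to 6 over the alternatives, and Cops2 was not called once length and GC trends were removed (log2 0.04, edgeR adjusted p = 0.141). Of the 8 genes of the CCT chaperonin, which folds actin and tubulin, 7 were higher (median 0.40). Over all tested genes 23.5% were called higher and 26.3% lower. Among those averaging a log2 CPM of 3 or more the shares were 37.9% and 38.3%. No difference between these lists and the proteasome was tested.

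After the Kdm5d knockdown the changes were small and mostly downward. Of 42 members tested, 19 were lower in KD, 2 were higher (Psmg4 and Psme3) and 21 did not pass the test. Over all 20413 tested genes, 18.4% were called lower and 16.8% higher, and among genes averaging a log2 CPM of 3 or more the shares were 30.3% and 30.4%. The median log2 fold change of the members was -0.08, beside 0.01 for all genes. In 26 members every KD sample lay below every WT sample (23.6% of all tested genes), and in 5 every KD sample lay above (23.2%). The count depended on the scaling, since upper-quartile factors gave 11 lower and 5 higher. It also fell to 11 lower without WT sample 2, without WT sample 3 or without KD sample 1.

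Of the 19 genes called lower, 10 kept the call under every alternative run. They were Psmb3, Psmb4, Psmb7, Psmc2, Psmc6, Psmd5, Psmd8, Psmd10, Psme4 and Psmf1. Psmb2, Psmb5, Psmb6, Psmc1, Psmd2, Psmd9, Psmd11, Psmd13 and Psmg1 each lost it under at least 1. Both genes called higher, Psmg4 and Psme3, kept theirs throughout. Of the 21 not called, 9 passed under at least 1 alternative, with Psma1, Psma3, Psma5, Psma8, Psmb1 and Psmd12 lower and Psmd3, Psmg2 and Psmg3 higher. With upper-quartile factors the last 3, together with Psmg4 and Psme3, were the 5 called higher.

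Within the 20S core, 6 of 15 tested genes (40.0%) were lower in KD, all of them beta subunits. The share called lower was 30.3% among all genes averaging a log2 CPM of 3 or more. The class summed to 1683 ± 10.4 CPM in WT and 1587 ± 8.36 CPM in KD, a difference of -5.68%. Psmb7 was at 94.2, 88.1 and 97.7 CPM in WT and 78.3, 82.7 and 80.9 CPM in KD, with every KD value below every WT value (log2 -0.21 ± 0.04, edgeR adjusted p = 0.00216). Psmb5 was at 93.0, 99.0 and 93.2 CPM in WT and 88.0, 90.1 and 88.7 CPM in KD (log2 -0.10 ± 0.03, adjusted p = 0.0382). Psmb6 was at 115, 113 and 120.1 CPM in WT and 110.5, 111 and 107 CPM in KD (log2 -0.09 ± 0.03, adjusted p = 0.0488). The last 2 sat close to the threshold, and with upper-quartile factors Psmb7 alone of the cutting subunits was called.

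The structural beta genes Psmb4, Psmb3 and Psmb2 were lower at log2 -0.19, -0.15 and -0.10, while Psmb1 was not called (-0.06). Of the 8 alpha ring genes edgeR called 0. At an unadjusted p under 0.05 there were 2, and DESeq2 and limma-voom called 1 each. Psma2, 1.95-fold apart between the sexes, was at 158, 162 and 159 CPM in WT and 162, 164 and 159 CPM in KD (log2 0.02 ± 0.02, edgeR adjusted p = 0.648). Psma8 counts were 12, 13 and 11 in WT and 0, 0 and 7 in KD, which edgeR did not call (adjusted p = 0.114, and 0.0108 to 0.284 over its alternatives). A difference between alpha and beta genes was not tested.

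In the base 4 of 9 genes (44.4%) were lower, beside 30.3% of all genes averaging a log2 CPM of 3 or more. These were Psmc6, Psmc2, Psmc1 and Psmd2, and the class sum went from 1126 ± 4.43 to 1091 ± 6.00 CPM. The ATPase Psmc6 (chr14:45329788-45349705, plus strand) was at 113, 116 and 117 CPM in WT and 105, 102 and 105 CPM in KD (log2 -0.15 ± 0.03, edgeR adjusted p = 0.00156). The ATPase Psmc2 was at 86.0, 87.0 and 86.6 CPM in WT and 78.6, 77.8 and 77.6 CPM in KD (log2 -0.15 ± 0.03, adjusted p = 0.00113). Neither overlapped between groups. Psmc5, another ATPase, overlapped, at 71.0, 72.5 and 68.9 CPM in WT and 72.7, 70.0 and 72.1 CPM in KD (log2 0.02 ± 0.03, adjusted p = 0.754).

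The lid had 3 of 8 genes lower (37.5%), beside 30.3% of all genes averaging a log2 CPM of 3 or more. Psmd8 had the smallest adjusted p of any subunit of the particle. Psmd8 (chr7:29174188-29180701, minus strand), a structural lid subunit, was at 159, 159 and 157 CPM in WT and 128, 129 and 129.8 CPM in KD. That is a difference of -18.5% with groups far apart (log2 -0.30 ± 0.02, edgeR adjusted p = 3.55e-06). Psmd11 and Psmd13 were lower at log2 -0.08 each. Psmd12 was at 81.0, 78.3 and 78.5 CPM in WT and 76.0, 73.9 and 74.8 CPM in KD, just outside the threshold (log2 -0.08 ± 0.03, adjusted p = 0.0517). Psmd6 was at 81.5, 86.4 and 84.5 CPM in WT and 82.8, 85.2 and 84.8 CPM in KD, with overlap (log2 0.00 ± 0.03, adjusted p = 0.963).

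Assembly chaperones differed in both directions. Psmd10, known as gankyrin, was at 13.5, 15.2 and 15.0 CPM in WT and 11.4, 11.5 and 10.9 CPM in KD, without overlap (log2 -0.37 ± 0.06, edgeR adjusted p = 0.00109). The other base chaperones Psmd5 and Psmd9 were lower at -0.17 each, and the 3 together summed to 101 ± 2.89 CPM in WT and 88.0 ± 2.19 CPM in KD. Psmg4 was at 8.94, 8.34 and 8.51 CPM in WT and 11.4, 9.86 and 10.8 CPM in KD, all KD values being higher (log2 0.31 ± 0.07, adjusted p = 0.00721). Psmg1 was lower (-0.20). Psmg2 was at 26.0, 25.6 and 26.5 CPM in WT and 28.4, 27.2 and 27.4 CPM in KD, which did not overlap and yet missed the threshold (log2 0.09 ± 0.04, adjusted p = 0.118, and 0.0414 with upper-quartile factors).

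All 3 regulators passed the test. Among all genes averaging a log2 CPM of 3 or more, 30.3% were called lower and 30.4% higher. Psme4 (chr11:30771726-30880361, plus strand) was at 140.4, 140.2 and 139 CPM in WT and 112, 111 and 115 CPM in KD (log2 -0.32 ± 0.02, edgeR adjusted p = 4.37e-06). Psmf1 was at 44.4, 45.7 and 44.1 CPM in WT and 39.4, 39.3 and 39.8 CPM in KD (log2 -0.18 ± 0.03, adjusted p = 0.00202). Psme3 was at 286 CPM in each WT sample and 317, 327 and 317 CPM in KD (log2 0.16 ± 0.02, adjusted p = 8.75e-05). Groups were separate in each.

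In the rest of the pathway 2 of the 5 inducible genes were higher in KD, Psmb8 and Psmb10, by log2 0.16 each, while Psmb9 (0.06), Psme1 (0.01) and Psme2 (0.01) were not called. Of the 11 genes around NFE2L1, 8 were lower, and 6 to 9 over the 17 alternatives, with 6 without WT sample 1. Sel1l lost its call in 8 of these and Nfe2l2 in 1. The smallest p were those of Maf (-0.80), which is not a small Maf, Ngly1 (-0.54) and the small Maf partner Mafg (-0.31). Nfe2l2 was at -0.14, while Nfe2l1 itself (-0.09, edgeR adjusted p = 0.0505) and Ddi2 (0.07) were not called. Of the parts with other names, Sem1 (-0.23) and Ecpas (-0.21) were lower, and Pomp (-0.08) and Adrm1 (-0.10) were not called. Adrm1 was called lower under 5 alternatives, the DESeq2 test (adjusted p = 0.0174) and the replicate block (edgeR adjusted p = 0.0486) among them, and Pomp under 2. Psmb9, Nfe2l1 and Ddi2 likewise gained calls, under 4, 5 and 5 alternatives. Of the shuttle and p97 genes 3 were lower, Vcp (-0.14) among them, and Ubqln2 was higher (0.35). The COP9 list had 4 of 9 lower and 1 higher, and the CCT list 4 of 8 higher and 1 lower. For all the lists of this paragraph, the shares over all tested genes were 18.4% lower and 16.8% higher. They were 30.3% lower and 30.4% higher among genes averaging a log2 CPM of 3 or more. Over the alternatives the COP9 count was 3 to 4 lower, with Cops6 losing its call under 5, and the CCT count 3 to 4 higher and 0 to 1 lower.

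Set side by side, the comparisons share no samples. Of the 41 members tested in both, 16 joined a higher level in Male with a lower level in KD, beside 7.33% of all genes. That share covers genes at any level, and no share for genes near the level of the members was computed. Male was higher in 37 of the 41 and KD was lower in 19. These separate counts largely set the 16, which shows no link between the comparisons. A further 19 were higher in Male and not called in KD. Psmg4 and Psme3 were higher in both Male and KD, and Psmf1 was lower in both. Psmd9 and Psme4 were lower in KD without passing in Male, and Psmg3 passed in neither. Across the 41 genes, which share libraries and are not replicates, the log2 fold changes of the comparisons had a Pearson's r of 0.24 and a Spearman's rho of 0.24, given as a description, beside a rho of -0.08 over the 19529 genes tested in both. Psmb2, Psma2 and Psma5, with the largest sex differences, were at -0.10, 0.02 and -0.07 in KD, and Psmd8, the most lowered subunit in KD among those expressed, had the least sex difference of the lid (0.19).

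**Figure D4:**
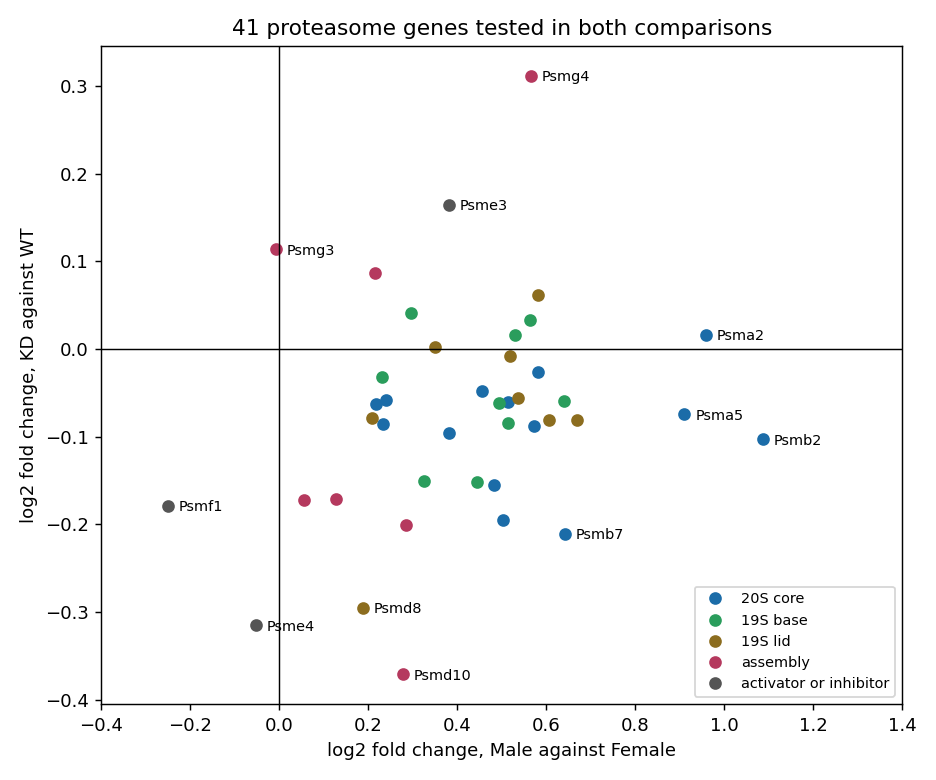
Log2 fold change in Male against Female (horizontal) and KD against WT (vertical) for the 41 members tested in both, coloured by class, with the outlying genes named. Most points lie right of 0 and slightly below 0, Psmg4 and Psme3 lie above, and Psmf1 is at the lower left.

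The balance of inducible to constitutive cutting subunits was followed as the ratio of their levels per kilobase of transcript. Psmb8 to Psmb5 was 2.06, 2.16 and 2.02 in Female against 2.02, 1.93 and 1.95 in Male. It was 1.77, 1.66 and 1.82 in WT against 2.14, 2.06 and 2.07 in KD. Psmb9 to Psmb6 averaged 0.862 ± 0.017 (SD) in Female against 0.846 ± 0.020 in Male, and 0.755 ± 0.008 in WT against 0.836 ± 0.009 in KD. Psmb10 to Psmb7 averaged 0.670 ± 0.023 in Female against 0.771 ± 0.029 in Male, and 0.962 ± 0.060 in WT against 1.25 ± 0.032 in KD. All 3 ratios were thus higher in every KD sample than in any WT sample, by 1.19-fold, 1.11-fold and 1.30-fold. Between the sexes the Psmb10 ratio alone separated the groups, at 1.15-fold. The exact two-sided permutation p was 0.1 for those 4 differences, the smallest that 3 samples against 3 allow, and 0.2 and 0.4 for Psmb8 and Psmb9 between the sexes. Adjusted over the 6 exact tests, these were 0.15, 0.24 and 0.4.

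**Figure D5:**
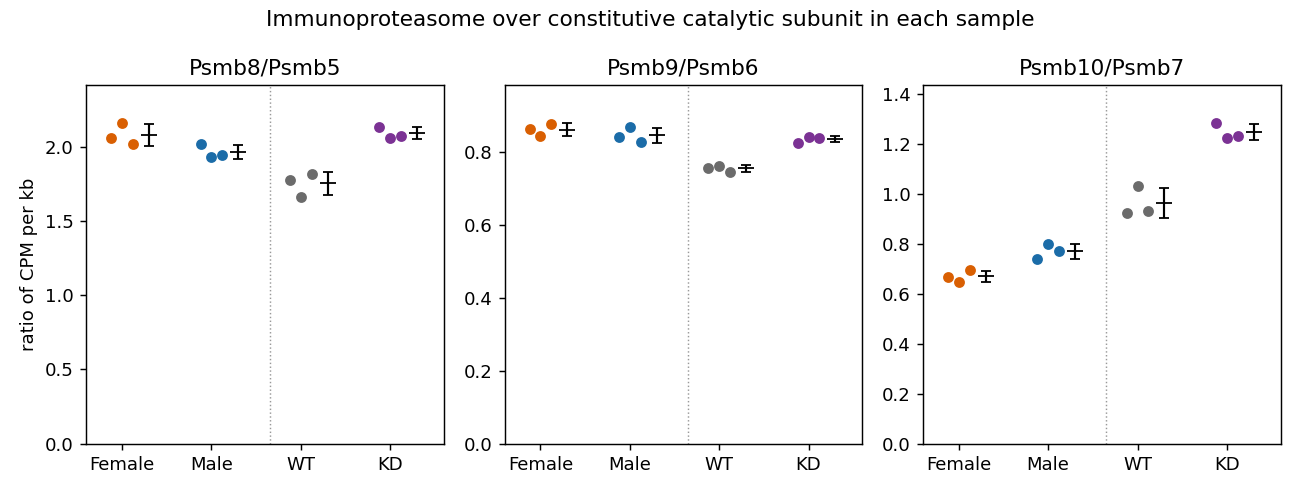
Ratio of each immunoproteasome subunit to the constitutive subunit it replaces, in CPM per kilobase, for each sample, with the mean and SD of each group of 3 in black. All 3 ratios are higher in KD than in WT, and from Female to Male only Psmb10 over Psmb7 has groups that do not overlap.

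Several members have processed pseudogenes or overlapping genes, so their counts are uncertain. In 8 genes more than 10% of the 31-base subsequences were shared with another gene: Psmb5 (71.7%), Psma5 (58.7%), Psmc1 (32.2%), Psmd2 (31.6%), Psmb3 (21.7%), Psma3 (19.5%), Psma4 (18.3%) and Psmd11 (13.1%). All 8 with shared sequence were called higher in Male, and 29 of the 33 other tested members were too. The most counted copy relative to its parent was Gm13835, at 20.2% of the level of Psma3 in Female and 20.5% in Male. Of the other pathway genes named, Vcp (43.9%), Psme2 (33.5%), Adrm1 (27.4%) and Ddi2 (18.1%) also shared more than 10%. On the opposite strand 8 members overlap another gene, the longest stretches being those of Psmd9 with Gm26745 (1849 bases) and Psmb7 with Nek6 (405 bases). Whether the counting used strand is not given in the sources used here.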

How the data were processed

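The deposited data were raw counts of each gene, whole numbers without normalization as judged from the values, in a table for the sexes and another for the knockdown. Per the labels' protocols, RNA came from QIAGEN RNeasy columns and libraries from an Illumina stranded kit with ribosomal RNA depletion. The submitters' processing notes name mm10, bcl2fastq 2.20.0, HISAT2, StringTie and DESeq2 without roles. The annotation and strand setting are not given in the sources used here. Of the identifiers, 260 matched no GENCODE M21 gene.

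Models were fitted to the 6 samples of each table by edgeR 4.0.16 under R 4.3.3 (TMM, filterByExpr, quasi-likelihood test, Benjamini-Hochberg adjustment over all tested genes). On simulated counts, 200 genes were changed by a log2 of 1. The fit recovered 62.5% of them among 19782 genes for the sexes and 63% among 19970 for the knockdown. Of its calls 12% and 11.3% were false, above the 5% aimed for. Far fewer genes changed there than were called in the data, and most members differed by less. These shares therefore need not hold for the calls above. Alternatives were DESeq2 1.42.0 size factors or test, upper-quartile factors, 2 low-count filters, limma-voom (limma 3.58.1), protein-coding genes only, a replicate block, removal of length and GC trends, and leaving out each sample. Adding the counts of near-identical genes was chosen after seeing the data. Members and gene lists were chosen with earlier results of these data known, and 1 of the lists is not reported here. Named genes were all members by role. Values per sample were given for the 3 cutting subunits and, per class and comparison, the 2 most and the 1 least changed members. From the other lists, named genes were those listed by name or up to 3 with the smallest p. Errors printed are standard errors of the fit or SDs over 3 samples.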

Additional observations from a re-analysis of the deposited data

How the results depend on the processing

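Direction and count were steady for the sexes and less so for the knockdown. In Male against Female, the number of members called was 36 to 39 under the 11 alternatives and 37 to 38 with 1 sample left out. The median log2 fold change of 0.45 became 0.44 without a low-count filter, 0.48 at a mean log2 CPM of 3 or more, 0.51 for protein-coding genes only, 0.41 without length and GC trends and 0.41 with the block added, and 0.44 to 0.47 with 1 sample left out. In KD against WT, upper-quartile factors gave 11 lower, 5 higher and a median of -0.0459. The median over all tested genes was higher as well, at 0.0427 with those factors and 0.0124 with TMM. A mean log2 CPM of 3 or more gave 5 higher and a median of -0.0500, protein-coding genes only -0.0672, and removal of length and GC trends -0.0653, also with the block (-0.0653). With 1 sample left out, 13 to 19 members were called, 11 to 17 of them lower, with medians of -0.0856 to -0.0655. What causes the shifts was not tested.

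The replicate block left 38 calls between the sexes and reduced those in KD from 21 to 15, with 13 lower. Same-numbered samples did not deviate together (correlations -0.04 to 0.02), so the numbers are not shown to pair samples.

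Genes that changed sign were at an adjusted p over 0.05 in edgeR before and after. Between the sexes Psmg3 turned to 0.0231 at a mean log2 CPM of 3 or more, 0.000703 with limma-voom and 0.0464 for protein-coding genes only, and ranged from -0.0717 to 0.0598 with 1 sample left out. Psme4 turned to 0.00129 for protein-coding genes only and 0.0117 without length and GC trends (0.0118 with the block). Cops4 turned to -0.00855 without a filter (-0.0131 to 0.0217 with 1 sample left out). In KD, Psma4 turned to 0.00466 with upper-quartile factors. Psmd7 turned to 0.0223 with upper-quartile factors, 0.0162 at the higher filter and 0.00101 for protein-coding genes only. Psmd6 turned to -0.00280 without a filter, and Psme2 to -0.0406 with near-identical genes added. With 1 sample left out, Psmc4 ranged from -0.000206 to 0.0712, Psmc5 from -0.00544 to 0.0344, Psmd6 from -0.0218 to 0.0229, Psmd7 from -0.0276 to 0.00916, Psme1 from -0.0141 to 0.0333 and Psme2 from -0.0318 to 0.0409.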
